A study of Homo sapiens with 72 samples.

Results

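EGR1, EGR2, EGR3, ARC, NR4A1, IER2 and SRF are early response genes, most of them controlled through serum response factor (SRF). They were picked by symbol from the deposited count table, where they are 7 of 19324 genes. All 7 passed the filter on low counts, which kept 15470 genes for testing. Their levels are described here in 4 lines of HEK293 cells before and after ultraviolet (UV) light, with and without an inhibitor of the kinase ATR.

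HEK293 is a human embryonic kidney cell line, and the study used its Flp-In T-REx derivative. WT is the unedited line. CSB_KO is a knockout of CSB, the protein encoded by ERCC6 which recognises RNA polymerase II halted by DNA damage and sets off transcription-coupled repair. STK19_KO1 and STK19_KO2 are 2 knockouts of STK19, a gene that has also been linked to this repair. Each line had 6 conditions with 3 libraries each, which makes 24 groups and 72 libraries. The conditions were untreated cells (0 h), irradiated cells at 3 h, and later irradiated cells, taken at 4 h or 20 h, in either DMSO, the solvent, or VE-821 at 3 µM, the ATR inhibitor (ATRi). Cells grew in DMEM. ATR is the checkpoint kinase that responds to stalled replication and to UV damage. Whether 4 h and 20 h are times after UV or times after the inhibitor differs between the labels. No UV dose is stated in the sources used here. Later groups without irradiation, and inhibitor without irradiation, were not analysed here, so time in culture and UV cannot be told apart. CSB has a single knockout line, so a trait of that line and the loss of CSB cannot be told apart. Since no label says whether replicates were grown or irradiated separately, p-values reflect only how far these libraries spread, which may be technical.

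Total counts per library ran from 36503670 to 212861875. The HEK293 genes VIM, which encodes vimentin, and NEFL, a neurofilament gene, were present in all libraries, at 652 to 1290 CPM (counts-per-million) and at 95.1 to 275 CPM. Other HEK293 genes looked at were lower, with medians of 51.3 CPM for LIN28B, 2.41 CPM for PAX2 and 0.561 CPM for NEFM. The blood cell gene PTPRC and the squamous keratin gene KRT5 had a median of 0 CPM. Not all genes of other cell types were absent. The blood cell gene CD14 was at 0.236 to 29.8 CPM and the fibroblast gene COL1A1 at 2.75 to 18.4 CPM. At 0 h, ERCC6 was at 23.5 ± 0.47 CPM in WT and at 6.97 ± 0.61 CPM in CSB_KO (SD, n = 3). STK19 at 0 h was at 17.5 ± 0.59 CPM in STK19_KO1, at 17.1 ± 0.86 CPM in STK19_KO2 and at 19.0 ± 1.07 CPM in WT, so the amount of its transcript does not check those labels. In STK19_KO1, replicate 3 at 3 h and replicate 1 at 4 h ATRi, and in WT, replicate 1 at 0 h, 3 h and 4 h DMSO, lay apart from the other libraries of their groups.

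Early response genes are transcribed within minutes of a stimulus, from factors already present in the cell, and their RNA is usually short-lived. Mitogens and UV light activate MAP kinases, which phosphorylate ETS-type cofactors such as ELK1 on promoters that hold SRF, and a second class of cofactors, MRTFA and MRTFB, brings SRF under the control of actin. SRF binds the CArG box, the core of the serum response element. EGR1, EGR2 and EGR3 encode zinc finger transcription factors that bind the same GC-rich sites and are held back by the corepressors NAB1 and NAB2. NR4A1 encodes an orphan nuclear receptor, IER2 a small nuclear protein that acts in transcription, and ARC a capsid-like protein known for its part in synaptic plasticity.

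RefSeq promoter sequences (GRCh38.p14) were at hand for 5 of the 7 genes, EGR1, EGR2, IER2, NR4A1 and SRF, with 9 start sites in all. The CArG box was searched on either strand in the 250 bases before each start. EGR1 had 2 matches, beginning 105 and 83 bases before its start. SRF had 2 matches, beginning 30 and 10 bases before its upstream start, and EGR2 had 1, beginning 71 bases before the start at base 62816366. Of 35097 windows of this length in the RefSeq table, 407 (1.16%) held a match. The windows of IER2 and NR4A1 held none, which says only that these letters are not there. The EGR1 window is chr5:138465229-138465478 on the plus strand and the SRF window is chr6:43171019-43171268 on the plus strand. The EGR2 stretch is chr10:62816418-62816447 on the minus strand. They are shown because they hold the CArG boxes that were found, which are in capitals:
EGR1: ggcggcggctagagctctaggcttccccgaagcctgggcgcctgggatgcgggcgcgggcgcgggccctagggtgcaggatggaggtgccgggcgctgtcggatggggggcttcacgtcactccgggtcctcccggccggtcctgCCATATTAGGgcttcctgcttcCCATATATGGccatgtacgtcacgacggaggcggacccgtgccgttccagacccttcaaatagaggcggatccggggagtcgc
SRF: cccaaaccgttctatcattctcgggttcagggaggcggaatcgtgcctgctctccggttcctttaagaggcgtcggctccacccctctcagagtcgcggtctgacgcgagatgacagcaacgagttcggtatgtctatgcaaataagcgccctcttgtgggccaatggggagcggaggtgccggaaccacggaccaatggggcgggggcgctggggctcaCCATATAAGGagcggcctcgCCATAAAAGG
EGR2: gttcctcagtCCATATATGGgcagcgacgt

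The same windows were searched on either strand for TGACG, the core of the cyclic AMP response element, which 21.2% of all windows held. It was found in the windows of EGR1, SRF, IER2 and 1 of 3 EGR2 starts. The full palindrome TGACGTCA, which 1.65% of windows held and which contains that core, was in none of them. GGGCGG, the GC box, was in windows of SRF, EGR2, NR4A1 and IER2 and in 42.6% of all windows.

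In the GRCh38 coordinates of the deposited table the 7 genes span 3.43 to 36.7 kb. EGR1 (ENSG00000120738) lies at chr5:138465479-138469303, EGR2 (ENSG00000122877) at chr10:62811996-62819167 and EGR3 (ENSG00000179388) at chr8:22687659-22693480, each with 2 exons in the main transcript of the GENCODE annotation. ARC (ENSG00000198576) lies at chr8:142611049-142614479 with 3 exons, and the intronless IER2 (ENSG00000160888) at chr19:13150411-13154911 with 1 exon. NR4A1 (ENSG00000123358) lies at chr12:52022832-52059507 with 8 exons and SRF (ENSG00000112658) at chr6:43171269-43181506 with 7 exons. EGR3, NR4A1 and IER2 each overlap a noncoding gene on the other strand. The library kit keeps strand, but the strand setting of the counting is not given, so reads of EGR3, NR4A1 and IER2 and of those partners may not be separated.

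Levels per length at 0 h in WT, as CPM per kb of transcript, fell into 3 ranges. SRF at 30.1, IER2 at 17.5 and EGR1 at 16.0 CPM per kb were the most abundant. NR4A1 at 5.43 and ARC at 3.98 CPM per kb lay below them, and EGR3 at 0.317 and EGR2 at 0.153 CPM per kb were close to silent. EGR2 had only 5 to 180 counts in any library, so its values carry the widest errors. Over the 24 groups EGR3 varied most, with a highest group mean 12.7 times the lowest, and SRF least, at 1.55 times. The plot of levels shows each library.

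**Figure D1:**
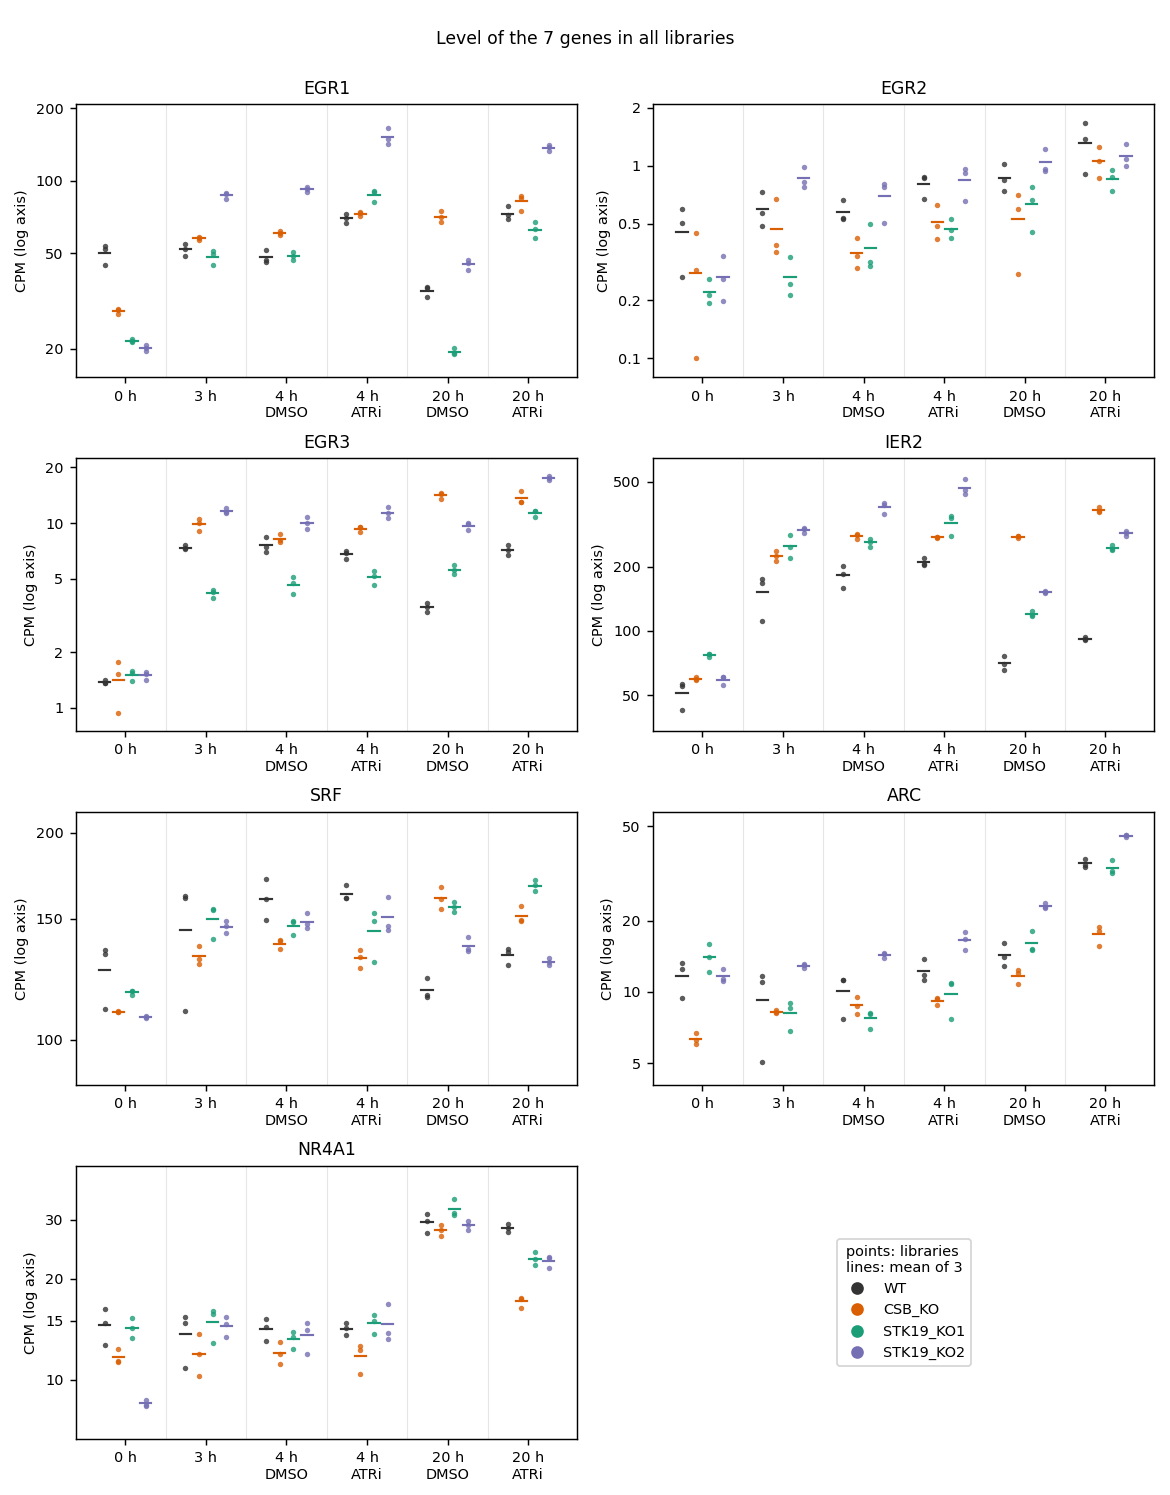
Level of each gene in CPM (log axis) in the 72 libraries, by condition and line; points are libraries and lines are means of 3. EGR3 and IER2 are lowest at 0 h in every line, NR4A1 is highest at 20 h in every line, and ARC is highest at 20 h with the inhibitor in every line.

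Before irradiation, EGR1 was lower in all 3 edited lines than in WT. EGR2 was lower in both STK19 knockouts, ARC in CSB_KO, and NR4A1 in CSB_KO and STK19_KO2. IER2 was higher in STK19_KO1, and EGR3 did not pass the test in any line. Calls were made in edgeR's quasi-likelihood fit over all genes, at an adjusted p (Benjamini-Hochberg) under 0.05. In CSB_KO 4 of the 7 genes were lower, where 15.7% of all tested genes were lower. In STK19_KO1 2 were lower and 1 was higher, where 19.2% of all genes were lower and 29.5% higher. In STK19_KO2 4 were lower, where 20.7% of all genes were lower.

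The WT libraries at 0 h held EGR1 at 44.8, 53.6 and 52.1 CPM. CSB_KO held it at 29, 27.9 and 29.3 CPM, STK19_KO1 at 21.6, 21.3 and 21.9 CPM and STK19_KO2 at 20.2, 20.7 and 19.5 CPM. All 9 libraries of edited lines lay below the 3 WT libraries. The log2 change was -0.81 ± 0.06 in CSB_KO (adjusted p = 3.1e-16), -1.22 ± 0.06 in STK19_KO1 (adjusted p = 1.2e-23) and -1.32 ± 0.06 in STK19_KO2 (adjusted p = 3.0e-25); here and below, errors on changes are standard errors of the fit. These were among the larger falls in each line, at the percentiles 4.56, 5.34 and 3.56 of the changes of all tested genes.

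ARC at 0 h was at 9.46, 13.2 and 12.5 CPM in WT and at 6.26, 6.73 and 6.06 CPM in CSB_KO, with no overlap. Its log2 change in CSB_KO was -0.88 ± 0.15 (adjusted p = 3.4e-06). It was 0.25 ± 0.15 in STK19_KO1 (adjusted p = 0.16) and -0.01 ± 0.15 in STK19_KO2 (adjusted p = 0.97), so ARC passed the test in CSB_KO alone.

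NR4A1 at 0 h was at 12.7, 16.2 and 14.8 CPM in WT and at 8.32, 8.71 and 8.41 CPM in STK19_KO2, a log2 change of -0.78 ± 0.10 (adjusted p = 1.4e-09). In CSB_KO it was at 11.4, 12.3 and 11.2 CPM, all below WT, with a change of -0.32 ± 0.10 (adjusted p = 0.0073). That smaller call did not hold without replicate 2 or without replicate 3 of every group (adjusted p = 0.12 each). In STK19_KO1 the change was -0.03 ± 0.10.

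IER2 at 0 h was at 42.6, 56.3 and 55.2 CPM in WT and at 77.6, 78.3 and 75.6 CPM in STK19_KO1, a log2 change of 0.59 ± 0.09 (adjusted p = 4.4e-07). It was 0.22 ± 0.09 in CSB_KO (adjusted p = 0.065) and 0.20 ± 0.09 in STK19_KO2 (adjusted p = 0.070). SRF was at 111, 133 and 135 CPM in WT, and its changes were small, at -0.20 ± 0.07 in CSB_KO (adjusted p = 0.019), -0.11 ± 0.07 in STK19_KO1 (adjusted p = 0.20) and -0.23 ± 0.07 in STK19_KO2 (adjusted p = 0.0054). The low WT library for IER2 and SRF is replicate 1, which lies apart. Without the 5 libraries that lie apart, SRF was also called lower in STK19_KO1, at -0.21 (adjusted p = 1.2e-05), and likewise without replicate 1, at -0.20 (adjusted p = 2.4e-04). Without replicate 2 or 3 of every group, neither SRF call held, with adjusted p from 0.14 to 0.29.

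EGR2 at 0 h had 9 to 16 counts per library in STK19_KO1, 18 to 20 in STK19_KO2 and 13 to 49 in WT. Its log2 change was -1.06 ± 0.36 in STK19_KO1 (adjusted p = 0.010) and -0.82 ± 0.33 in STK19_KO2 (adjusted p = 0.037). Neither call held without replicate 2 or without replicate 3, with adjusted p from 0.13 to 0.54. In CSB_KO the change was -0.66 ± 0.32 (adjusted p = 0.11), and -0.91 without the 5 libraries that lie apart (adjusted p = 0.034) or -1.32 without replicate 1 (adjusted p = 0.0077). EGR3 was at 1.37 ± 0.03 CPM in WT, 1.51 ± 0.09 CPM in STK19_KO1, 1.5 ± 0.08 CPM in STK19_KO2 and 1.41 ± 0.43 CPM in CSB_KO (SD, n = 3). The lines overlapped except WT and STK19_KO2, where the highest WT library was at 1.404 CPM and the lowest STK19_KO2 library at 1.408 CPM.

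At 3 h after UV, EGR3 and IER2 rose in all 4 lines, and SRF rose slightly in all 4. EGR1 rose in the 3 edited lines and did not pass the test in WT. NR4A1 was called in STK19_KO2 alone, and so was EGR2, except that leaving out replicate 1 also gave a call in CSB_KO. ARC fell in STK19_KO1 and WT and rose in CSB_KO, and the calls in WT and CSB_KO were close to the threshold and did not hold under several alternatives. In WT 3 of the 7 genes rose and 1 fell, where 33.6% of all tested genes rose and 28.8% fell. In CSB_KO 5 rose and none fell, where 32.0% of all genes rose. In STK19_KO1 4 rose and 1 fell, where 29.9% rose and 30.6% fell. In STK19_KO2 6 rose, where 29.1% rose. In bulk RNA, a transcript in fewer cells and less of it per cell cannot be told apart, and CPM values are relative to all other polyadenylated RNA.

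EGR3 in WT was at 1.4, 1.37 and 1.36 CPM at 0 h and at 7.61, 7.20 and 7.29 CPM at 3 h, a log2 change of 2.42 ± 0.11 (adjusted p = 2.3e-27). At 3 h it was at 9.06, 10.5 and 10.04 CPM in CSB_KO, at 4.36, 4.26 and 3.94 CPM in STK19_KO1 and at 11.4, 11.4 and 12.1 CPM in STK19_KO2. From lowest to highest the lines were STK19_KO1, WT, CSB_KO and STK19_KO2, with no overlap between their libraries. The changes were 1.47 ± 0.11 in STK19_KO1, 2.97 ± 0.10 in STK19_KO2 and 2.83 ± 0.11 in CSB_KO, 2.76-, 7.81- and 7.09-fold. With 485 to 630 counts in the WT libraries at 3 h, EGR3 was still a low-abundance transcript.

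IER2 in WT rose from 42.6, 56.3 and 55.2 CPM to 111, 168 and 176 CPM at 3 h, 2.95-fold (log2 change 1.56 ± 0.09, adjusted p = 1.2e-21). In CSB_KO it rose from 59.1, 60.8 and 59.6 CPM to 214, 238 and 225 CPM, 3.77-fold, and in STK19_KO1 from 77.6, 78.3 and 75.6 CPM to 219, 247 and 283 CPM, 3.23-fold. The rise was largest in STK19_KO2, from 55.9, 60.8 and 60.8 CPM to 288, 301 and 304 CPM, 5.03-fold (log2 change 2.33 ± 0.10, adjusted p = 4.5e-29). No library at 3 h overlapped with 0 h in any line. Per length, IER2 reached 51.7 CPM per kb in WT at 3 h, above SRF at 34.3 CPM per kb.

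EGR1 in WT was at 48.9, 52.1 and 54.4 CPM at 3 h, overlapping with 0 h (log2 change 0.04 ± 0.06, adjusted p = 0.55). From their lower starting levels the edited lines reached 57.9, 56.6 and 58.3 CPM in CSB_KO, 44.6, 50.9 and 49.6 CPM in STK19_KO1, and 88.9, 83.6 and 88.2 CPM in STK19_KO2. STK19_KO1 thus overlapped with WT at 3 h, and STK19_KO2 and CSB_KO lay above it. The log2 changes were 1.00 ± 0.06 in CSB_KO (adjusted p = 3.9e-21), 1.16 ± 0.06 in STK19_KO1 (adjusted p = 2.3e-23) and 2.11 ± 0.06 in STK19_KO2 (adjusted p = 2.8e-35).

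The rise of SRF was 0.19 ± 0.07 in WT (adjusted p = 0.015), 0.35 ± 0.07 in STK19_KO1, 0.44 ± 0.07 in STK19_KO2 and 0.27 ± 0.07 in CSB_KO on the log2 scale, at most 1.35-fold. WT held 111, 133 and 135 CPM at 0 h and 110, 162 and 161 CPM at 3 h. Its replicate 1 was low at either time. The WT call did not hold without replicate 2 or 3 (adjusted p = 0.26 and 0.22) or in a fit of WT alone (adjusted p = 0.31).

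ARC in STK19_KO1 fell from 12.2, 15.9 and 14.0 CPM to 6.84, 8.60 and 9.0 CPM (log2 change -0.78 ± 0.15, adjusted p = 1.2e-05), with no overlap. In WT it was at 5.08, 11.6 and 11 CPM at 3 h, with replicate 1 far below the other libraries, and its change of -0.34 ± 0.15 (adjusted p = 0.044) was lost without the 5 libraries that lie apart, at -0.20 (adjusted p = 0.089). It was also lost with DESeq2 size factors (adjusted p = 0.057), with no filter on low counts (adjusted p = 0.087), in a fit of WT alone (adjusted p = 0.15) and without replicate 1, 2 or 3 in turn, at -0.18 to -0.45. In CSB_KO it rose from 6.26, 6.73 and 6.06 CPM to 8.20, 8.13 and 8.42 CPM (0.37 ± 0.16, adjusted p = 0.036), with no overlap. Without replicate 2 or 3 of every group its change was 0.43 and 0.32 and was not called (adjusted p = 0.091 and 0.25). ARC had started highest in STK19_KO1 and lowest in CSB_KO.

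NR4A1 in STK19_KO2 rose from 8.32, 8.71 and 8.41 CPM to 14.6, 13.4 and 15.4 CPM (log2 change 0.77 ± 0.10, adjusted p = 6.9e-10). That is the range of the other lines at 3 h, which lay between 10.2 and 16.0 CPM. The changes in those lines ran from -0.09 to 0.06. EGR2 in STK19_KO2 rose from 18 to 20 counts per library to 42 to 120 (1.73 ± 0.32, adjusted p = 4.3e-06), and its changes of 0.37 in WT, 0.69 in CSB_KO and 0.30 in STK19_KO1 did not pass. That in CSB_KO was 1.253 and called without replicate 1 of every group (adjusted p = 0.0080).

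**Figure D2:**
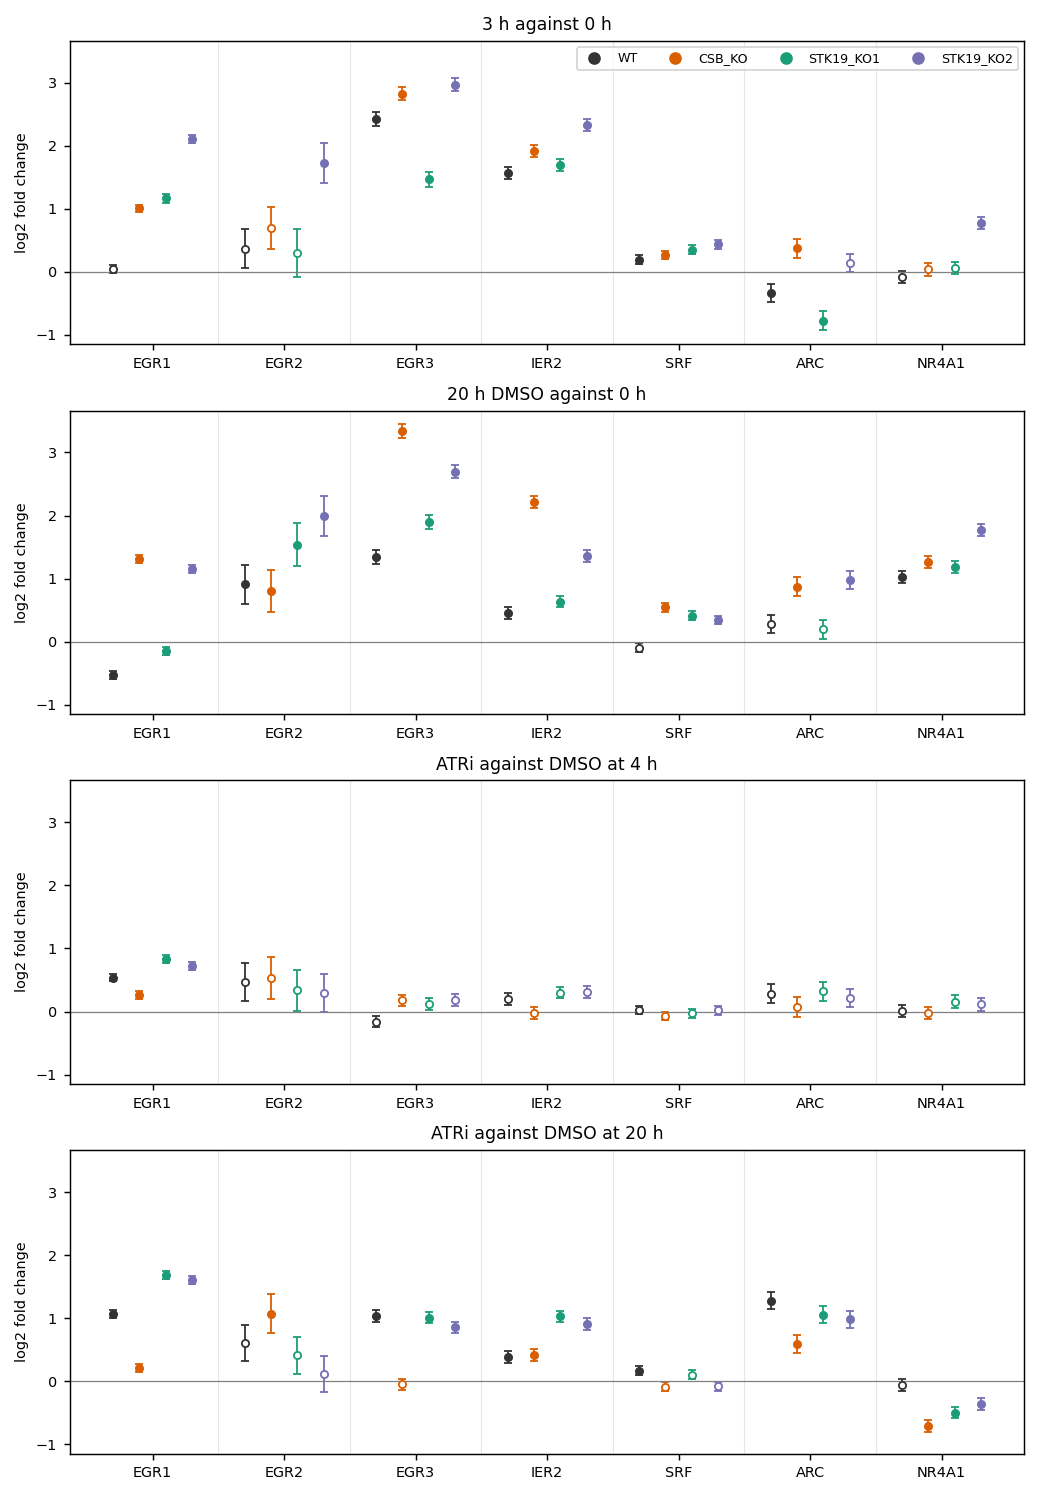
Log2 fold change of each gene in the 4 lines for 4 comparisons; bars are standard errors of the edgeR fit, filled points passed an adjusted p under 0.05 and open points did not. At 3 h EGR3 and IER2 are the highest points in WT, at 2.42 and 1.56, and with the inhibitor at 4 h only EGR1 is filled.

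The changes at 3 h were set against those in WT by interaction terms in the same fit. In CSB_KO 2 of 7 genes had a more positive change than in WT, where 1.48% of all tested genes did, namely EGR1 by 0.96 ± 0.09 (adjusted p = 2.8e-12) and ARC by 0.71 ± 0.22 (adjusted p = 0.025). The ARC difference was lost without replicate 2 or 3 (adjusted p = 0.10 and 0.20). For the mean of both STK19 knockouts 3 of 7 gained more, where 10.1% of all genes did. These were EGR1 by 1.59 ± 0.08 (adjusted p = 9.9e-24), NR4A1 by 0.51 ± 0.12 (adjusted p = 9.4e-04) and IER2 by 0.45 ± 0.11 (adjusted p = 0.0020), the last not called without replicate 2 (adjusted p = 0.058). For NR4A1 this mean joins a change of 0.06 in STK19_KO1, not called, with 0.77 in STK19_KO2, beside -0.09 in WT. For IER2 it joins 1.69 in STK19_KO1 with 2.33 in STK19_KO2, beside 1.56 in WT. IER2 gained 0.36 ± 0.13 more in CSB_KO than in WT (adjusted p = 0.075), which was called without the 5 libraries that lie apart, at 0.31 (adjusted p = 0.0040), and with the replicate block within each line, at 0.36 (adjusted p = 0.014). The 2 STK19 knockouts fell on either side of WT for EGR3, so their mean differed from WT by only -0.21 ± 0.14 (adjusted p = 0.28). The difference between the 2 knockouts was not tested here for any gene, and their values are given side by side.

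At 4 h in DMSO many levels were near those at 3 h, a comparison that was not tested. Not all were. Mean IER2 went from 225.6 to 279.6 CPM in CSB_KO and from 297.6 to 379.7 CPM in STK19_KO2, without overlap. Mean EGR3 in CSB_KO went from 9.86 to 8.23 CPM, also without overlap. Compared with 0 h, 3 of 7 genes were higher in WT, 4 in STK19_KO1, 6 in STK19_KO2 and 5 in CSB_KO, where 35.0%, 27.9%, 31.6% and 33.6% of all tested genes were higher. ARC in STK19_KO1 was again the single gene that was lower, at 8.12, 7.0 and 8.10 CPM (log2 change -0.85 ± 0.15, adjusted p = 2.9e-06), where 30.0% of all genes were lower. IER2 stood at 159, 186 and 202 CPM in WT and at 353, 396 and 391 CPM in STK19_KO2, log2 changes of 1.82 ± 0.10 and 2.68 ± 0.10 from 0 h. EGR1 stood at 46.1, 46.6 and 51.7 CPM in WT and at 90.2, 92.0 and 93.8 CPM in STK19_KO2, changes of -0.06 ± 0.06 and 2.19 ± 0.06. ARC in CSB_KO was higher by 0.45 ± 0.16 (adjusted p = 0.0090), which was not called without replicate 2 or 3 (adjusted p = 0.074 and 0.12). ARC in STK19_KO2, at 0.29 (adjusted p = 0.078), was called without the 5 libraries that lie apart, at 0.25 (adjusted p = 0.0056), without replicate 1, at 0.28 (adjusted p = 0.0083), and in a fit of STK19_KO2 alone, at 0.27 (adjusted p = 3.0e-04).

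By 20 h in DMSO the 7 genes had taken separate courses. NR4A1, which had passed no test at 3 h or 4 h in WT, CSB_KO or STK19_KO1, was now higher in every line. EGR3 was still above 0 h in every line, and EGR2 was higher in every line at low counts. IER2 and EGR1 had come down from 4 h in WT and the STK19 knockouts, whereas in CSB_KO IER2 stood where it was and EGR1 went on rising. EGR3 came down from 4 h in WT, rose in CSB_KO and by less in STK19_KO1, and was not called in STK19_KO2 (-0.06, adjusted p = 0.60). Against 0 h, 4 of 7 genes were higher and 1 was lower in WT, where 30.0% of all genes were higher and 25.4% lower. All 7 were higher in CSB_KO, where 38.3% of all genes were. In STK19_KO1 5 were higher and 1 lower, where 32.1% were higher and 37.0% lower, and all 7 were higher in STK19_KO2, where 33.8% were.

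NR4A1 in WT went from 12.7, 16.2 and 14.8 CPM at 0 h and 13.0, 14.4 and 15.2 CPM at 4 h to 27.5, 31.2 and 29.7 CPM at 20 h. At 20 h CSB_KO held 27.9, 29 and 26.9 CPM, STK19_KO1 31.1, 34.7 and 31.3 CPM and STK19_KO2 28.0, 28.9 and 29.8 CPM. The 4 lines thus met at nearly the same level. The log2 changes from 0 h were 1.02 ± 0.09 in WT (adjusted p = 5.2e-14), 1.18 ± 0.10 in STK19_KO1, 1.77 ± 0.10 in STK19_KO2 and 1.26 ± 0.10 in CSB_KO. From 4 h to 20 h in DMSO they were 1.05 in WT, 1.29 in STK19_KO1, 1.09 in STK19_KO2 and 1.21 in CSB_KO, all with adjusted p of 4.6e-15 or lower.

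EGR3 at 20 h was at 3.52, 3.69 and 3.29 CPM in WT, below its level at 4 h (log2 change from 4 h -1.12 ± 0.10, adjusted p = 1.1e-15) and above 0 h (1.34 ± 0.11). In CSB_KO it was at 14.5, 14.4 and 13.4 CPM, higher than at 4 h by 0.77 ± 0.09 (adjusted p = 6.1e-11) and 10.1-fold above 0 h. STK19_KO1 held 5.94, 5.27 and 5.55 CPM, a rise of 0.27 ± 0.10 from 4 h that was not called without replicate 1 (adjusted p = 0.22), and STK19_KO2 held 9.998, 9.16 and 9.91 CPM. At 20 h no libraries of different lines overlapped, with CSB_KO highest and WT lowest.

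IER2 at 20 h was at 65.8, 76.5 and 69.9 CPM in WT, 0.388 times its level at 4 h (log2 change -1.37 ± 0.09, adjusted p = 1.4e-19). It fell by 1.12 in STK19_KO1 and by 1.32 in STK19_KO2 on the log2 scale. In CSB_KO it was at 274, 278 and 278 CPM against 270, 286 and 282 CPM at 4 h, a change of -0.02 ± 0.09 (adjusted p = 0.88). The CSB_KO level at 20 h was 4.62-fold above 0 h, compared with 1.38-fold in WT, 1.55-fold in STK19_KO1 and 2.57-fold in STK19_KO2.

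EGR1 at 20 h was at 32.7, 36.1 and 35.9 CPM in WT, below all WT libraries at 0 h (log2 change -0.52 ± 0.06, adjusted p = 1.6e-10). It was at 67.3, 74.7 and 70.5 CPM in CSB_KO, 2.47-fold above 0 h. STK19_KO1 held 20.1, 19.1 and 19.2 CPM and STK19_KO2 45.3, 47.0 and 42.5 CPM. The STK19_KO1 level was back near its start, with a change of -0.15 ± 0.07 from 0 h (adjusted p = 0.039) that was not called with DESeq2 (adjusted p = 0.13), with its type of size factors (adjusted p = 0.12) with no filter on low counts (-0.05, adjusted p = 0.55) or without the 5 libraries that lie apart (-0.13, adjusted p = 0.061). The STK19_KO2 level was still 2.23-fold above 0 h. From 4 h to 20 h the change was -0.46 ± 0.06 in WT, -1.32 ± 0.06 in STK19_KO1, -1.03 ± 0.06 in STK19_KO2 and 0.22 ± 0.06 in CSB_KO. That of CSB_KO was not called without replicate 2 (0.17, adjusted p = 0.083).

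ARC at 20 h was at 12.9, 16.0 and 14.0 CPM in WT, a log2 change of 0.28 ± 0.15 from 0 h (adjusted p = 0.094). It was higher than at 0 h in CSB_KO, at 12.4, 10.8 and 12.0 CPM (0.87 ± 0.15, adjusted p = 9.1e-07), and in STK19_KO2, at 22.7, 22.7 and 23.6 CPM (0.98 ± 0.14, adjusted p = 1.7e-08). In STK19_KO1 its change from 0 h was 0.19 (adjusted p = 0.23), and 0.21 without the 5 libraries that lie apart (adjusted p = 0.018). From 4 h to 20 h it rose in all 4 lines, by 0.51 in WT, 1.05 in STK19_KO1, 0.69 in STK19_KO2 and 0.42 in CSB_KO. The WT rise was not called in a fit of WT alone (adjusted p = 0.051), nor that of CSB_KO without replicate 3 (adjusted p = 0.11). From 4 h to 20 h in DMSO, 2 of 7 genes rose and 4 fell in WT, where 34.1% of all genes rose and 35.5% fell. In CSB_KO 5 rose, where 34.6% did. In STK19_KO1 4 rose and 2 fell, where 32.3% rose and 33.4% fell, and in STK19_KO2 2 rose and 2 fell, where 31.6% rose and 34.9% fell. Among the rises in STK19_KO1 was EGR2, at 0.79 ± 0.32 (adjusted p = 0.027). That call was lost without replicate 1, 2 or 3 in turn (adjusted p = 0.084, 0.18 and 0.051).

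SRF at 20 h stood above 0 h by 0.41 ± 0.07 in STK19_KO1, 0.34 ± 0.07 in STK19_KO2 and 0.55 ± 0.07 in CSB_KO on the log2 scale. In WT it was at 116, 123 and 115 CPM, a change of -0.10 ± 0.07 (adjusted p = 0.24) that was called without the 5 libraries that lie apart, at -0.19 (adjusted p = 8.5e-05). From 4 h to 20 h, SRF in STK19_KO1 changed by 0.09 (adjusted p = 0.25), and by 0.12 without those libraries (adjusted p = 0.0024). Over the same time SRF changed by -0.44 ± 0.07 in WT (adjusted p = 1.3e-07) and by 0.22 ± 0.07 in CSB_KO (adjusted p = 0.0045). In STK19_KO2 its change was -0.12 (adjusted p = 0.14), which was called without replicate 1 (adjusted p = 0.014). EGR2 at 20 h was higher than at 0 h by 0.91 ± 0.30 in WT, 1.53 ± 0.34 in STK19_KO1, 1.99 ± 0.32 in STK19_KO2 and 0.80 ± 0.33 in CSB_KO. The WT call did not hold without the 5 libraries (0.65, adjusted p = 0.096) or without replicate 1 or 2, and that in CSB_KO did not hold without replicate 3 (0.20, adjusted p = 0.64).

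The change from 0 h to 20 h was larger in CSB_KO than in WT for 5 of the 7 genes, where 30.9% of all tested genes gained more. The difference in log2 change was 2.00 ± 0.16 for EGR3 (adjusted p = 3.6e-17), 1.83 ± 0.09 for EGR1 (adjusted p = 4.7e-26), 1.75 ± 0.13 for IER2 (adjusted p = 8.6e-18), 0.64 ± 0.10 for SRF and 0.59 ± 0.21 for ARC. For NR4A1 it was 0.24 ± 0.13 (adjusted p = 0.11), a difference that was called without the 5 libraries that lie apart, at 0.33 (adjusted p = 0.011), and at 0.32 with DESeq2 (adjusted p = 0.026) and with its size factors (adjusted p = 0.029). The ARC difference was not called without replicate 3 (adjusted p = 0.18).

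For the mean of the STK19 knockouts 5 of 7 genes also gained more than in WT, where 22.8% of all genes did. The differences were 1.03 ± 0.08 for EGR1, 0.95 ± 0.14 for EGR3, 0.54 ± 0.11 for IER2, 0.48 ± 0.09 for SRF and 0.45 ± 0.12 for NR4A1, with adjusted p of 6.7e-04 or lower. For EGR1 this mean joins a line that was 0.15 below its own 0 h level with a line that was 1.16 above it. For IER2 it joins 0.63 in STK19_KO1 with 1.36 in STK19_KO2, beside 0.46 in WT. For NR4A1 it joins 1.18 in STK19_KO1 with 1.77 in STK19_KO2, beside 1.02 in WT. The errors come from the spread of libraries, not from that between the 2 knockouts. ARC differed by 0.30 ± 0.18 (adjusted p = 0.15), and by 0.44 without the 5 libraries (adjusted p = 3.3e-04). EGR2 differed by 0.85 (adjusted p = 0.054), just short of a call. It was called without the 5 libraries, at 1.12 (adjusted p = 0.016), with DESeq2 (adjusted p = 0.038), with DESeq2 size factors (adjusted p = 0.046) and in a fit of only those lines (adjusted p = 0.024).

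**Figure D3:**
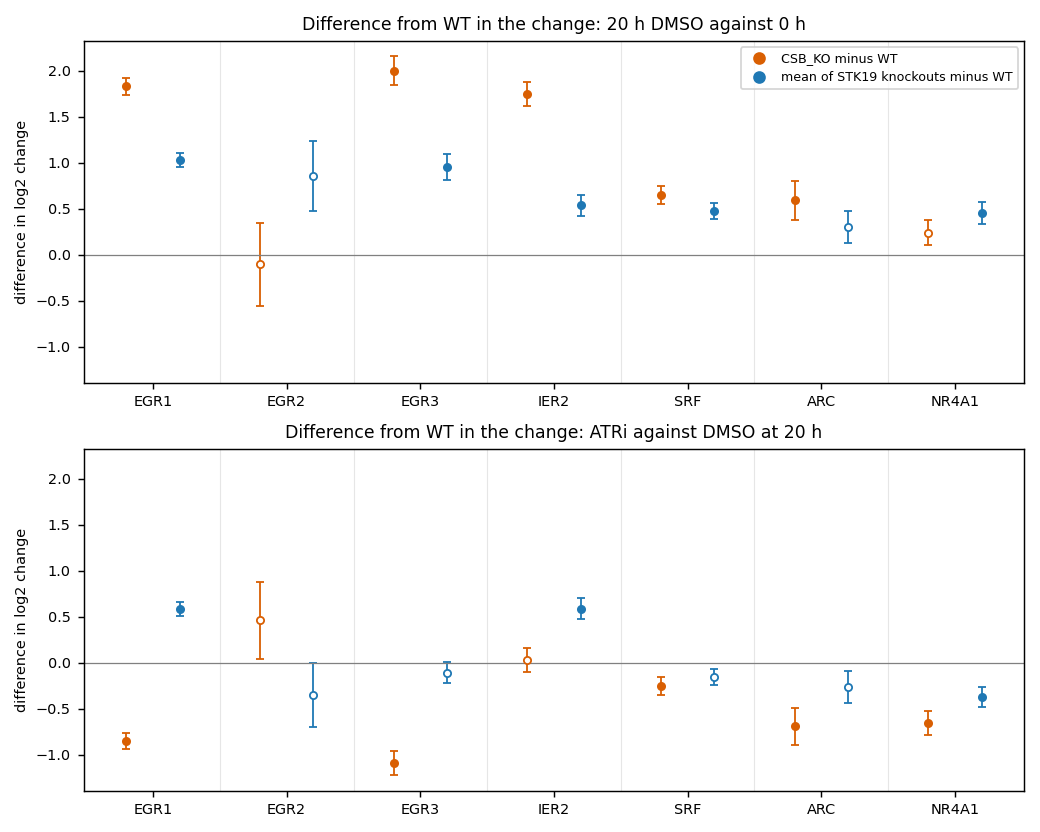
Difference from WT in the log2 change, for CSB_KO and for the mean of the STK19 knockouts. The changes are 20 h in DMSO against 0 h and the inhibitor against DMSO at 20 h. Bars are standard errors, and filled points passed an adjusted p under 0.05. For 20 h in DMSO, EGR1, EGR3 and IER2 in CSB_KO stand highest, at 1.83, 2.00 and 1.75; for the inhibitor, EGR3 and EGR1 in CSB_KO are the lowest filled points, at -1.09 and -0.85.

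With the ATR inhibitor at 4 h, EGR1 was the single member that was higher than in DMSO, and it was higher in all 4 lines. This was 1 of 7 genes in each line, where 2.03% of all tested genes were higher in WT, 0.776% in STK19_KO1, 0.194% in STK19_KO2 and 2.70% in CSB_KO. The WT libraries held EGR1 at 66.9, 72.5 and 70.2 CPM with the inhibitor and at 46.1, 46.6 and 51.7 CPM in DMSO. CSB_KO held 71.3, 73.6 and 74.2 CPM against 60.6, 59.7 and 62.0 CPM. STK19_KO1 held 81.3, 89.9 and 90.6 CPM against 46.9, 48.7 and 50.7 CPM, and STK19_KO2 149, 142 and 166 CPM against 90.2, 92.0 and 93.8 CPM. In each line the groups did not overlap.

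The log2 change of EGR1 with the inhibitor at 4 h was 0.54 ± 0.06 in WT (adjusted p = 3.5e-08), 0.27 ± 0.06 in CSB_KO (adjusted p = 0.0047), 0.84 ± 0.06 in STK19_KO1 (adjusted p = 1.9e-15) and 0.73 ± 0.06 in STK19_KO2 (adjusted p = 2.6e-13). In CSB_KO the change was 0.25 without replicate 2 and 0.27 without replicate 3, about as large, and was not called there (adjusted p = 0.32 and 0.12). IER2 was at 280, 344 and 337 CPM with the inhibitor in STK19_KO1 against 248, 269 and 262 CPM in DMSO, and its change of 0.30 ± 0.09 (adjusted p = 0.12) was called without the 5 libraries that lie apart, at 0.39 (adjusted p = 4.7e-07), and with the replicate block within each line (adjusted p = 0.019). In STK19_KO2 its change of 0.31 ± 0.09 (adjusted p = 0.32) was likewise called without them, at 0.31 (adjusted p = 1.1e-05). ARC in STK19_KO1 changed by 0.32 ± 0.15 (adjusted p = 0.52), and by 0.48 without the 5 libraries (adjusted p = 0.0020). EGR3, NR4A1 and SRF moved by at most 0.18 either way in any line. EGR2, at low counts, changed by 0.30 in STK19_KO2 to 0.53 in CSB_KO and was not called in any line.

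The early inhibitor changes did not differ from WT for any of the 7 genes in edgeR's test, either in CSB_KO, where 3.20% of all tested genes differed, or in the STK19 mean, where 0.00646% did. In edgeR's test EGR1 and EGR3 had an unadjusted p under 0.05 in each. All tested genes were not counted at that threshold, so the shares above do not apply to it. DESeq2 called 1 in CSB_KO, EGR1 at -0.27 (adjusted p = 0.037), and 0 for the STK19 mean. Without the 5 libraries EGR1 differed for the STK19 mean, by 0.30 (adjusted p = 0.041).

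At 20 h the inhibitor raised EGR1, ARC and IER2 in all 4 lines, and EGR3 in WT and the STK19 knockouts. NR4A1 was lower with it in the 3 edited lines. In WT 5 of 7 genes were higher, where 30.2% of all genes were. In CSB_KO 4 were higher and 1 was lower, where 14.1% were higher and 17.5% lower. In STK19_KO1 4 were higher and 1 lower, where 31.5% and 30.1% of all genes were, and in STK19_KO2 4 were higher and 1 lower, where 30.5% and 27.7% were.

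EGR1 at 20 h in WT was at 69.1, 78.4 and 71.7 CPM with the inhibitor, against 32.7, 36.1 and 35.9 CPM in DMSO. In STK19_KO1 it was at 67.3, 62.9 and 57.6 CPM against 20.1, 19.1 and 19.2 CPM, and in STK19_KO2 at 132, 141 and 138 CPM against 45.3, 47.0 and 42.5 CPM. In these 3 lines EGR1 had fallen between 4 h and 20 h in DMSO. The means of the inhibitor groups at 20 h, which were not tested against those at 4 h, stood at 62.6 CPM in STK19_KO1, 137.0 CPM in STK19_KO2 and 73.1 CPM in WT. At 4 h they had stood at 87.2, 152.1 and 69.9 CPM in the same order. The log2 changes against DMSO were 1.06 ± 0.06 in WT (adjusted p = 2.9e-22), 1.68 ± 0.06 in STK19_KO1 (adjusted p = 2.1e-30) and 1.61 ± 0.06 in STK19_KO2 (adjusted p = 1.1e-29). In CSB_KO, where DMSO cells had kept EGR1 high, it was at 75.1, 84.5 and 86.8 CPM against 67.3, 74.7 and 70.5 CPM, a change of 0.21 ± 0.06 (adjusted p = 0.0047) that did not hold without replicate 2 or 3 (adjusted p = 0.055 and 0.12).

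ARC at 20 h in WT was at 34.3, 33.8 and 36.3 CPM with the inhibitor, against 12.9, 16.0 and 14.0 CPM in DMSO (log2 change 1.28 ± 0.14, adjusted p = 9.9e-12). It was at 15.7, 18.8 and 18.1 CPM in CSB_KO, at 32.4, 35.9 and 31.8 CPM in STK19_KO1, and at 45.6, 45.0 and 45.7 CPM in STK19_KO2. The inhibitor at 20 h gave the highest ARC group in every line. The changes were 1.06 ± 0.14 in STK19_KO1, 0.98 ± 0.14 in STK19_KO2 and 0.59 ± 0.15 in CSB_KO (adjusted p = 0.0012); that of CSB_KO was not called without replicate 2 (0.47, adjusted p = 0.11).

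EGR3 in WT was at 7.11, 7.64 and 6.74 CPM with the inhibitor at 20 h against 3.52, 3.69 and 3.29 CPM in DMSO (1.04 ± 0.10, adjusted p = 4.5e-14). It rose by 1.01 ± 0.09 in STK19_KO1 and by 0.86 ± 0.09 in STK19_KO2 as well. In CSB_KO it was at 13.0, 13.0 and 14.9 CPM against 14.5, 14.4 and 13.4 CPM, with overlap (-0.05 ± 0.09, adjusted p = 0.74). IER2 rose by 0.38 ± 0.09 in WT, 1.03 ± 0.09 in STK19_KO1, 0.91 ± 0.09 in STK19_KO2 and 0.42 ± 0.09 in CSB_KO. With 362, 365 and 380 CPM, CSB_KO with the inhibitor held the most IER2 of all groups at 20 h.

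NR4A1 went the other way. In CSB_KO it was at 16.4, 17.5 and 17.4 CPM with the inhibitor against 27.9, 29 and 26.9 CPM in DMSO (log2 change -0.70 ± 0.10, adjusted p = 2.4e-08). In STK19_KO1 it was at 21.9, 24.1 and 22.8 CPM against 31.1, 34.7 and 31.3 CPM (-0.50 ± 0.09), and in STK19_KO2 at 23.1, 23.2 and 21.6 CPM against 28.0, 28.9 and 29.8 CPM (-0.35 ± 0.09, adjusted p = 8.4e-04). In WT it was at 28.4, 29.2 and 27.7 CPM against 27.5, 31.2 and 29.7 CPM, with overlap (-0.05 ± 0.09, adjusted p = 0.63). All NR4A1 libraries with the inhibitor at 20 h still lay above those of their own line at 0 h. The call in STK19_KO2 was not made without replicate 3 (adjusted p = 0.053). SRF passed the test in WT, at 0.17 ± 0.07 (adjusted p = 0.031), a call that was lost without replicate 2 or 3 (adjusted p = 0.11 and 0.23). Its change of 0.10 in STK19_KO1 (adjusted p = 0.19) was called without the 5 libraries that lie apart, at 0.11 (adjusted p = 0.0076). EGR2 passed in CSB_KO, from 0.597, 0.274 and 0.707 CPM to 1.06, 1.26 and 0.865 CPM (1.07 ± 0.31, adjusted p = 0.0055), and was not called without replicate 2 (0.55, adjusted p = 0.45). In WT its change of 0.61 (adjusted p = 0.057) was called with DESeq2 size factors (adjusted p = 0.046).

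The inhibitor's effect at 20 h was smaller or more negative in CSB_KO than in WT for 5 of 7 genes, where 26.9% of all tested genes moved that way. The difference was -1.09 ± 0.13 for EGR3 (adjusted p = 4.9e-10), -0.85 ± 0.09 for EGR1 (adjusted p = 2.6e-12), -0.69 ± 0.20 for ARC (adjusted p = 0.0036), -0.65 ± 0.13 for NR4A1 (adjusted p = 3.5e-05) and -0.25 ± 0.10 for SRF (adjusted p = 0.028). The SRF difference was not called without replicate 2 or 3 or in a fit of CSB_KO and WT alone (adjusted p = 0.087), and the ARC difference was not called without replicate 3 (adjusted p = 0.092). For IER2 the difference was 0.04 ± 0.13 (adjusted p = 0.84).

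In the mean of the STK19 knockouts, 2 genes moved up by more than in WT, where 20.7% of all genes did, and 1 moved down by more, where 20.2% did. EGR1 differed by 0.58 ± 0.08 (adjusted p = 6.6e-09), IER2 by 0.59 ± 0.11 (adjusted p = 2.2e-05) and NR4A1 by -0.37 ± 0.11 (adjusted p = 0.0061). The NR4A1 difference was not called without replicate 2 or 3 (adjusted p = 0.0504 and 0.066). Without the 5 libraries that lie apart, ARC at -0.27 (adjusted p = 0.016) and SRF at -0.16 (adjusted p = 0.0020) were called too. EGR3 differed by -0.11 ± 0.12 (adjusted p = 0.50).

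Across the 24 group means of log2 CPM, the 7 genes did not follow a single course. EGR3 and IER2 had a Pearson r of 0.82, EGR1 and IER2 of 0.76 and EGR1 and EGR3 of 0.73. NR4A1 and ARC had an r of 0.65 with each other, and with IER2 of only -0.04 and 0.07. These values describe 24 points that share lines, and no p is given for them. By the same measure, the gene most like IER2 was FOSB (0.95), that most like EGR1 was FOS (0.85), that most like EGR3 was SLC25A4 (0.95) and that most like ARC was CLK4 (0.93). ZNF391 (0.88) was most like EGR2, NOA1 (0.90) most like NR4A1 and ENDOG (0.87) most like SRF.

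Other genes of the pathway were counted from lists, which were chosen with earlier results of these data known. At 3 h, 33.6% of all tested genes rose and 28.8% fell in WT, 29.9% and 30.6% in STK19_KO1, 29.1% and 28.5% in STK19_KO2, and 32.0% and 29.3% in CSB_KO, and the list counts at 3 h stand beside these shares. Of 28 other early genes, 20 rose and 3 fell at 3 h in WT, 21 and 3 in STK19_KO1, 23 and 2 in STK19_KO2, and 20 and 5 in CSB_KO. The median log2 change of this list ran from 0.86 in STK19_KO1 to 1.24 in STK19_KO2, beside medians of 0.03 to 0.06 for all tested genes at 3 h in the 4 lines. FOSB, which encodes a subunit of AP-1, rose by 3.07 in WT, 2.4 in STK19_KO1, 3.33 in STK19_KO2 and 3.12 in CSB_KO, and GADD45B, a stress sensor gene, by 2.27, 2.15, 2.4 and 2.34, in the same order. MYC, a growth-promoting transcription factor gene, fell in all 4 lines, by 1.74 in WT, 1.38 in STK19_KO1, 1.58 in STK19_KO2 and 2.00 in CSB_KO on the log2 scale.

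At 20 h in DMSO, EGR4, the remaining EGR family gene, was higher than at 0 h by 3.36 in WT, 3.81 in STK19_KO1, 2.13 in STK19_KO2 and 2.88 in CSB_KO. The inhibitor at 20 h raised 21 of the 28 other early genes in WT, 21 in STK19_KO1, 20 in STK19_KO2 and 12 in CSB_KO, where 30.2%, 31.5%, 30.5% and 14.1% of all tested genes were higher. Among them was ATF3, a stress-induced transcription factor gene, which was higher by 1.99, 2.27, 1.79 and 0.94. Of the 28 genes, 4 were lower in WT, 4 in STK19_KO1, 3 in STK19_KO2 and 2 in CSB_KO. Of all 15470 tested genes 5213 were lower in WT, and 30.1%, 27.7% and 17.5% were lower in the edited lines, in the same order. The list holds ZFP36, NR4A2 and NR4A3, which are also in the decay and NR4A lists. Among the relatives of NR4A1, NR4A2 was lower with the inhibitor at 20 h in all 4 lines, at -0.39 in WT, -0.25 in STK19_KO1, -0.32 in STK19_KO2 and -0.28 in CSB_KO. NR4A3 had changes of 0.41, 0.58, 0.57 and 0.25 there, in the same order, which passed the test in WT and the STK19 knockouts.

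Of the 5 genes for SRF cofactors, 3 fell and 1 rose at 3 h in WT, 4 fell in CSB_KO, 3 fell in STK19_KO1, and 3 fell and 1 rose in STK19_KO2, where 28.5% to 30.6% of all genes fell. The list medians ran from -0.84 to -0.43, beside 0.03 to 0.06 for all genes. MRTFA and MRTFB, the actin-regulated cofactors, carried the largest falls, MRTFA by 2.00 in WT, 1.68 in STK19_KO1, 1.66 in STK19_KO2 and 1.63 in CSB_KO. By 20 h in DMSO, MRTFA was at -0.51 in WT, -0.92 in STK19_KO1, -1.02 in STK19_KO2 and -2.30 in CSB_KO against 0 h. The MRTF-type targets of the cytoskeleton (15 of 16 genes tested, MYL9 not) were higher at 3 h for 12 genes in WT, 11 in CSB_KO and 10 in each STK19 knockout, where 29.1% to 33.6% of all genes were. Their medians ran from 0.28 to 0.43, beside 0.03 to 0.06 for all genes. CCN2, a secreted matricellular protein gene, led them at 2.99 in WT, 2.13 in STK19_KO1, 2.63 in STK19_KO2 and 2.12 in CSB_KO.

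NAB2, the inducible EGR corepressor, was higher at 20 h in DMSO than at 0 h, by 0.69 in WT, 0.63 in STK19_KO1, 0.82 in STK19_KO2 and 0.58 in CSB_KO. With the inhibitor it was lower at 20 h than in DMSO, at -0.87 in WT, -1.31 in STK19_KO1, -1.02 in STK19_KO2 and -1.08 in CSB_KO, while EGR1 was higher. Among 11 genes of the upstream kinases and CREB1, 2 rose and 8 fell at 3 h in WT, 1 and 7 in STK19_KO1, 0 and 7 in STK19_KO2, and 2 and 7 in CSB_KO, with median changes of -0.26, -0.62, -0.53 and -0.23. Of all genes 28.5% to 30.6% fell. Of 9 genes for the decay of AU-rich transcripts, 5 rose and 2 fell at 3 h in WT, 3 and 4 in STK19_KO1, 4 and 4 in STK19_KO2, and 5 and 2 in CSB_KO, with median changes of 0.21, 0.02, -0.13 and 0.21. In STK19_KO1 these counts are near the shares of all genes, 29.9% and 30.6%. ZFP36, which directs decay of early transcripts, rose by 1.22 in WT, 0.45 in STK19_KO1, 1.27 in STK19_KO2 and 1.18 in CSB_KO.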

How the data were processed

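RNA was measured by sequencing of polyadenylated transcripts in 72 libraries, 3 in each of 24 groups. Per the labels' protocols, RNA was isolated with Qiagen RNeasy and libraries were made with the NEBNext Ultra II Directional kit. The authors deposited expected counts per gene, which are whole numbers in the table; the submitters' processing notes name STAR, RSEM, deepTools 3.5.1 and GRCh38, and the versions of STAR and RSEM, the annotation release and the strand setting are not given in the sources used here. Rounding was not needed. All other values were computed from these counts.

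Counts were fitted in 1 model of 24 groups with edgeR 4.0.16 in R 4.3.3 (TMM scaling, factors 0.857 to 1.125; filterByExpr with its count minimum at 10 and its total minimum at 15; quasi-likelihood test; Benjamini-Hochberg adjustment over 15470 genes; 3854 genes removed). Library totals were 36503670 to 212861875 counts. There were 27 comparisons of 2 groups and 8 of differences between lines. The script was tested on simulated data. Comparisons with 0 h share the libraries at 0 h of their line, and comparisons between lines share those of WT. Levels are CPM after TMM scaling, and per kb they are divided by the exon length of the longest principal transcript of the gene in GENCODE.

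All 7 genes were tested in every comparison, and values are not printed for each gene in each comparison. From each list, up to 2 genes with the largest mean rise and 2 with the largest mean fall over the lines, called with 1 sign in at least 3 lines, could be named. This rule was used for 3 h and 20 h DMSO against 0 h and for the inhibitor at 20 h. Most alike genes were sought among those with a symbol and a mean log2 CPM of at least 1. The genes and lists were chosen with earlier results of these data known.

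Same-numbered libraries deviated together in every pair (r over 0.1 over 9988 genes) in 4 of the 27 comparisons of 2 groups: 3 h and 4 h DMSO against 0 h in WT, 3 h against 0 h in CSB_KO, and the inhibitor at 4 h in STK19_KO1. The pairing comes from these correlations, not from the labels. Over all 27 comparisons r ran from -0.30 to 0.81.

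The alternatives were DESeq2 size factors, no filter on low counts, DESeq2 1.42.0, a replicate block, only the lines compared in the fit, leaving out each replicate in turn, and leaving out the 5 libraries that lie apart, meaning a chi-square per gene over 20 against both other libraries of the group. A replicate block within each line was chosen after seeing the data.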

Additional observations from a re-analysis of the deposited data

Results flagged for a closer look

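The change in a knockout differed from that in WT, by the interaction term of the edgeR fit, in 23 results, given here as the difference in log2 change. At 3 h against 0 h, the change was more positive than in WT in CSB_KO for EGR1 (0.96) and ARC (0.71), and in the mean of the STK19 knockouts for EGR1 (1.59), NR4A1 (0.51) and IER2 (0.45). NR4A1 itself was called at 3 h in STK19_KO2 and not in STK19_KO1. At 20 h in DMSO against 0 h, it was more positive in CSB_KO for EGR3 (2.00), EGR1 (1.83), IER2 (1.75), SRF (0.64) and ARC (0.59). In the STK19 mean it was more positive for EGR1 (1.03), EGR3 (0.95), IER2 (0.54), SRF (0.48) and NR4A1 (0.45). The changes of IER2 and NR4A1 in STK19_KO1 itself were 0.63 and 1.18, beside 0.46 and 1.02 in WT. For the inhibitor against DMSO at 20 h, CSB_KO differed by -1.09 for EGR3, -0.85 for EGR1, -0.69 for ARC, -0.65 for NR4A1 and -0.25 for SRF. The STK19 mean differed there by 0.59 for IER2, 0.58 for EGR1 and -0.37 for NR4A1.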

How the results depend on the processing

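Of 245 results for single genes, 143 of them called, 189 kept their direction and side of the threshold under every alternative that could be fitted, and 0 called values reversed. Of 35 counts of called genes among the 7, 23 stayed within 1.5 times under all alternatives. Where calls changed, the cause was not tested. In a fit of only the lines compared, the counts became 2 in place of 4 for WT at 3 h, 2 in place of 1 for the inhibitor at 4 h in STK19_KO2, and 1 in place of 2 for CSB_KO minus WT at 3 h. Without the 5 libraries that lie apart, the inhibitor at 4 h gave 3 calls in STK19_KO1 and 2 in STK19_KO2, and the difference of the STK19 mean from WT gave 1 at 4 h (0 with them) and 5 at 20 h (3 with them). DESeq2 gave 2 calls for the inhibitor at 4 h in STK19_KO1 and 1 for CSB_KO minus WT there. Leaving out each replicate gave ranges of 2 to 5 for CSB_KO against WT at 0 h, 2 to 4 for STK19_KO2 against WT at 0 h, 2 to 3 for WT at 3 h and 2 to 5 for the inhibitor at 20 h in CSB_KO. For the inhibitor at 4 h they were 0 to 1 in CSB_KO, 1 to 3 in STK19_KO1 and 1 to 2 in STK19_KO2. For CSB_KO minus WT they were 1 to 3 at 3 h and 3 to 5 for the inhibitor at 20 h. With no filter, EGR2 in STK19_KO2 at 0 h was not called (adjusted p = 0.051).

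The fit with a replicate block added 7 calls and removed 0. The count for the inhibitor at 4 h became 2 in STK19_KO1, with IER2 at 0.30 (adjusted p = 0.031), and 1 in CSB_KO minus WT, with EGR1 at -0.27 (adjusted p = 0.035). The other calls added were IER2 at 0 h in CSB_KO (0.22) and STK19_KO2 (0.21), ARC at 4 h in STK19_KO2 (0.30), and the differences from WT at 3 h of IER2 in CSB_KO (0.36) and SRF in the STK19 mean (0.21). The block within each line, chosen after seeing the data and not possible between lines at 0 h, gave counts for the inhibitor at 4 h of 2 in STK19_KO1, 2 in STK19_KO2 and 1 in CSB_KO minus WT. In most comparisons not every same-numbered pair deviated together, though single pairs could, as for 20 h DMSO against 0 h in WT (r of 0.60, 0.62 and -0.18). Each library correlated best with its own number in 4 of 27, which did not include 3 h or 4 h DMSO against 0 h in WT.

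Counts over all tested genes moved most for the inhibitor at 4 h. In WT 411 became 851, 39 and 65 without replicates 1, 2 and 3, 2119 without the 5 libraries and 17 in a fit of WT alone. In CSB_KO 460 became 708, 77, 145, 1086 and 865 in the same order. In STK19_KO2 34 became 58, 10, 13, 100 and 83. In STK19_KO1 140 became 36 and 43 without replicates 2 and 3, and 72 alone. For CSB_KO minus WT, 495 became 60 and 107 without replicates 2 and 3, and 1182 without the 5 libraries. For the STK19 mean minus WT, 1 became 70 without the 5 libraries, 12 with DESeq2, 8 without replicate 1, 3 and 4 with the blocks, 2 with DESeq2 size factors, and 0 with no filter, without replicates 2 or 3, or with only those lines. Without replicates 2 and 3, CSB_KO against WT at 0 h went from 5381 to 3354 and 3549. The inhibitor at 20 h in CSB_KO went from 4876 to 2662 and 3237. The difference from WT at 3 h went from 1513 to 492 and 672 in CSB_KO, and 998 with only those lines, and from 4201 to 1796 and 2796 in the STK19 mean. Depth limits EGR2 above all, with 5 to 180 counts per library.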
